A study of Homo sapiens with 2 samples.

Results

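The genes described here belong to the BCL2 family, which decides at the outer mitochondrial membrane whether a stressed cell lives or dies. They were taken from a list of 10 gene symbols, chosen with earlier results of these data known. It held the BH3-only genes BMF, BCL2L11, BBC3, PMAIP1 and BID, and the anti-death genes BCL2, BCL2L1, BCL2L2, MCL1 and BCL2A1. A member counted as measured when a probe set was annotated to its symbol alone, which held for 9 of the 10 listed genes among 18377 genes in all. BCL2L2 was the exception, because its single probe set also names the readthrough gene BCL2L2-PABPN1. All 5 BH3-only genes and 4 anti-death genes were therefore measured, each by 1 probe set.

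EBC1-R (1 array) is a population of EBC1 cells that survived stepwise exposure to PHA-665752, an inhibitor of the MET kinase, and was kept in medium with 3 µM inhibitor. EBC1 (1 array) is the wild-type parental line, a human non-small cell lung cancer line that depends on the receptor tyrosine kinase MET. The labels name no engineered allele and do not say whether EBC1-R is a single clone. The arrays were compared to find transcripts that go with acquired resistance. EBC1-R was grown in inhibitor, so selection for resistance and continued exposure to the drug cannot be told apart. With 1 array per group no value has a replicate error, no test was possible, and every difference below is a size alone, given as log2 EBC1-R minus log2 EBC1.

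Anti-death proteins of this family hold the pore-forming effectors BAX and BAK in check. BH3-only proteins carry the short BH3 helix that fits the groove of the anti-death proteins, releases the effectors and so starts the release of cytochrome c. In cells driven by a receptor kinase, ERK signalling is known to restrain BIM, the product of BCL2L11, and BMF, and loss of kinase signalling is a well-known setting in which these proteins accumulate. The products of BCL2L11, BBC3 (PUMA) and BID bind all anti-death proteins, while that of PMAIP1 (NOXA) prefers MCL1 and the BCL2A1 protein. The arrays measured RNA, not protein, and the gene-level probe sets do not separate splice forms such as the long and short forms of BCL2L1 and MCL1.

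The promoters of BMF and BCL2L1 are shown because both genes differed 2-fold, and that of BCL2L11 because it was the only one of the 8 members searched with a match to the motif of FOXO factors, which are known to induce it. MCL1 and BCL2L2 were not searched. Each sequence is the 250 bases upstream of the first listed gene start in RefSeq (GRCh38.p14). The BMF sequence lies at chr15:40108880-40109129 on the minus strand, that of BCL2L11 at chr2:111120664-111120913 on the plus strand and that of BCL2L1 at chr20:31723964-31724213 on the minus strand. Capitals mark motif matches on either strand, as listed after the sequences.
BMF: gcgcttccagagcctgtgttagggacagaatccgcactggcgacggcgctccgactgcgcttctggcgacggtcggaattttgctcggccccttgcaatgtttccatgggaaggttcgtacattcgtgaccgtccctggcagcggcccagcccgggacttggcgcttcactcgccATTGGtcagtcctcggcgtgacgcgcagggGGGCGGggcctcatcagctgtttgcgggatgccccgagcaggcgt
BCL2L11: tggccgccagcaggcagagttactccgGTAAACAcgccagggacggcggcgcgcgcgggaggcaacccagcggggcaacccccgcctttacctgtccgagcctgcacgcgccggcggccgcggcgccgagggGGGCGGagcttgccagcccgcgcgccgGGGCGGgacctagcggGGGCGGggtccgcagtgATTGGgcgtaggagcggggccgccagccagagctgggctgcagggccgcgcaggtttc
BCL2L1: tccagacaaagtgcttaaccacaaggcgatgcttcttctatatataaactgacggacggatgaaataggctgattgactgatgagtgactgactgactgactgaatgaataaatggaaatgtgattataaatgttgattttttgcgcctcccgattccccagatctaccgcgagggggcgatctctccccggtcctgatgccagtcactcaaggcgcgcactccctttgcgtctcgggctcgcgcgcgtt
In BCL2L11 the first capitals, from base -223 to -217 relative to the gene start, are the FOXO motif GTAAACA, which 2.98% of all 35116 RefSeq promoter windows of the same length hold. The other capitals in BCL2L11 are 3 GC boxes (GGGCGG, in 42.6% of all windows) and a CCAAT box (CCAAT, in 32.0%). BMF held 1 CCAAT box and 1 GC box. BCL2L1 had no match to any motif searched in this window or in its other listed window, and so has no capitals. Also searched were AP-1 (TGANTCA, 6.57% of windows), ETS (CCGGAAG, 8.52%), the E-box (CACGTG, 6.34%) and STAT (TTCNNNGAA, 6.57%), all on both strands, and no matches of different motifs overlapped in the members. Windows were listed for 8 members, 14 in all. Among them an AP-1 match occurred in BBC3 alone, an E-box in BBC3 and BID, a STAT match in BCL2A1 alone and an ETS match in none. GC content was 76.8% in the BCL2L11 window, 65.2% in BMF and 50.0% in BCL2L1. A match to these letters is a description of the sequence and not evidence of binding.

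BMF, the BH3-only protein known for release from the actin and myosin motor scaffold, had the largest difference of the 9 measured members. Its level was 8.04 log2 units in EBC1-R and 6.77 in EBC1, a difference of 1.26 or 2.40-fold higher. BMF was the 1 member at least 2-fold higher, against 1.26% of all 18377 genes and 2.13% of the 9189 genes whose higher array value reached 7.41, the median of those values, which served as the level filter. It stood at the 99.3rd percentile of all differences. Of 3116 genes with a mean level within 0.5 log2 units of it, BMF included, 33 had a larger positive difference. BMF passed the level filter through EBC1-R alone, and no detection call was used to separate its EBC1 value from background. In bulk RNA, more transcript per cell and more cells with the transcript cannot be told apart.

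BCL2L11, which encodes BIM, was at 7.87 in EBC1-R and 7.38 in EBC1, a difference of 0.49 or 1.40-fold. This is the second largest increase of the class, at the 93.7th percentile of all genes. It did not reach 2-fold, and 10.8% of other genes of similar level had a larger positive difference. BCL2L11 also passed the level filter through EBC1-R alone.

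BID, which is cut by caspase-8 and links death receptors to mitochondria, was at 9.43 in EBC1-R and 9.25 in EBC1, a difference of 0.18. BBC3, which encodes PUMA and is a classic p53 target, was at 7.33 in EBC1-R and 7.27 in EBC1, a difference of 0.06. The difference of BID was close to, and that of BBC3 below, 0.16, the pooled within-gene SD of probe set differences on this pair of arrays (374 genes with several probe sets above the level filter). That SD describes agreement between probe sets, not between cultures. BBC3 lay under the level filter on both arrays, so the SD was not measured at its level.

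PMAIP1, which encodes NOXA, another p53 target and the partner of MCL1, was the 1 BH3-only member lower in EBC1-R. Its level was 10.15 in EBC1-R and 10.57 in EBC1, a difference of -0.42 or 1.34-fold lower. It was high on both arrays, and 12.3% of other genes of similar level had a larger negative difference.

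Among the anti-death genes, the pair with high levels in EBC1 was lower in EBC1-R by about the same amount. BCL2L1, which encodes BCL-XL, was at 10.80 in EBC1-R and 11.82 in EBC1, a difference of -1.02 or 2.03-fold lower. MCL1, whose short-lived protein needs steady synthesis, was at 9.99 in EBC1-R and 10.99 in EBC1, a difference of -1.005 or 2.01-fold lower. These were the 2 members at least 2-fold lower, against 0.887% of all genes and 1.67% of the genes above the level filter.

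BCL2L1 stood at the 0.84th and MCL1 at the 0.87th percentile of all differences. Of 552 genes of similar level, BCL2L1 included, 9 were lower by more, and of 1183 such genes around MCL1, MCL1 included, 20 were. Both genes lie only just past the 2-fold threshold. MCL1 was under it after quantile normalization, after removal of a lowess trend and with a pseudocount, the value nearest 0 being -0.99, whereas BCL2L1 stayed between -1.05 and -1.01 in all 6 settings for a gene's value. On both arrays BCL2L1 and MCL1 were still among the brighter genes, at the 95.8th and 90.2nd percentile of gene levels in EBC1-R and the 98.9th and 96.7th in EBC1.

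The remaining measured anti-death genes were dim on both arrays. BCL2, the founding member of the family, was at 6.05 in EBC1-R and 6.25 in EBC1, a difference of -0.20. BCL2A1, an NF-kB target best known from leukocytes, was at 5.27 in EBC1-R and 5.39 in EBC1, a difference of -0.13. Both lay under the level filter, BCL2A1 at the 12.0th percentile of gene levels in EBC1-R and the 13.7th in EBC1, so a small difference here does not show that the transcript was unchanged. The probe set shared by BCL2L2, which encodes BCL-W, and BCL2L2-PABPN1 was at 6.90 on the EBC1-R array and 6.93 on the EBC1 array, a difference of -0.04 that cannot be assigned to either gene.

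**Figure D1:**
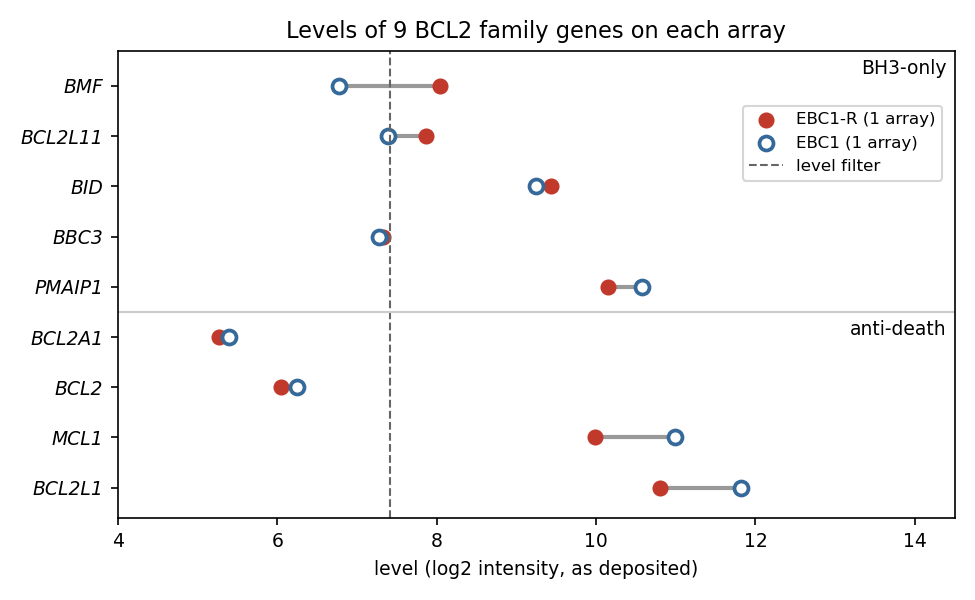
Levels of the 9 measured genes in log2 intensity as deposited, with BH3-only genes above the grey line and anti-death genes below it, filled points for EBC1-R, open points for EBC1, 1 array each, and a dashed line at the level filter of 7.41. The difference was 1.26 for BMF, -1.02 for BCL2L1 and -1.005 for MCL1.

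Of the BH3-only members 4 of 5 were higher, against 43.3% of all genes, and of the anti-death members 4 of 4 were lower, against 55.5% of all genes. BBC3 of the BH3-only class and BCL2A1 of the anti-death class had differences smaller in size than the SD of 0.16 between probe sets. Both genes lay under the level filter, whereas that SD was taken from genes above it. The median difference was 0.18 over the BH3-only members and -0.60 over the anti-death members, with a median of -0.03 over all genes, so the class medians were 0.78 log2 units apart. Of the 20 pairs of 1 BH3-only and 1 anti-death gene, the BH3-only gene had the more positive difference in 18, the exceptions being PMAIP1 against BCL2 and PMAIP1 against BCL2A1. Of family genes outside the list, the BH3-only genes BAD, BIK and HRK and the anti-death gene BCL2L10 were all lower. The class counts describe a few genes, chosen with earlier results of these data known, on 1 pair of arrays and carry no test.

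The class contrast rests on few genes. The anti-death median falls between BCL2L1 and MCL1 near -1 and BCL2 and BCL2A1 near 0, and describes neither pair. Taking the shared probe set as BCL2L2, an alternative chosen after seeing the data, moves that median to -0.20 and the gap to 0.38. Without BMF the BH3-only median is 0.12 and the gap 0.72. With BAD, BIK and HRK added to the BH3-only genes and BCL2L10 to the anti-death genes, the medians are -0.0069 and -0.20, and the gap narrows to 0.20.

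**Figure D2:**
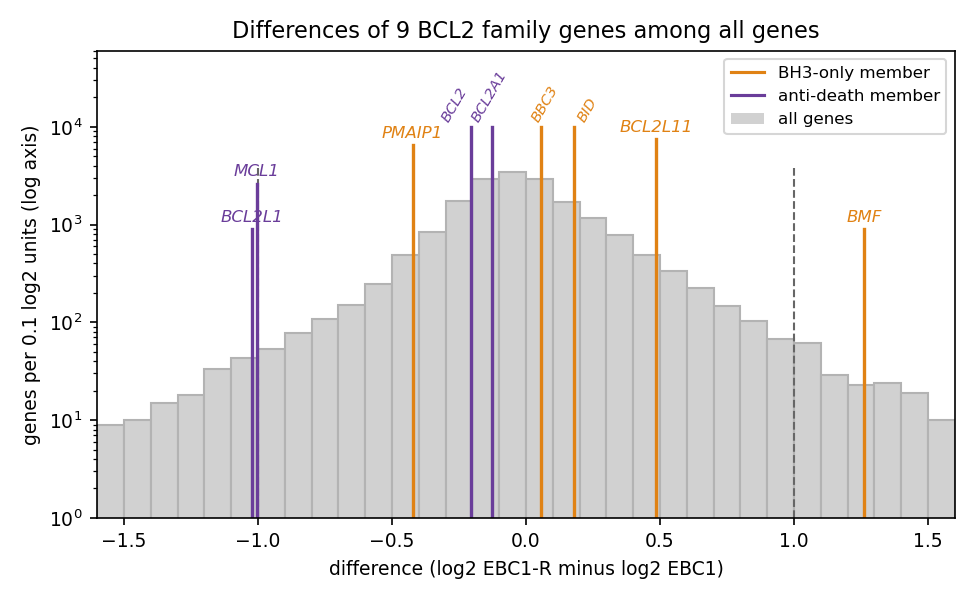
Distribution of the difference, log2 EBC1-R minus log2 EBC1, over all genes (grey bars, genes per bin on a log axis, shown between -1.6 and 1.6), with a coloured line at each measured BH3-only and anti-death gene and dashed lines at 2-fold; the height of a coloured line has no meaning. BMF lies beyond the right dashed line, BCL2L1 and MCL1 at the left one, and the other members within them.

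Differences between partners that bind each other can be read on the same log2 scale. The difference of BMF exceeded that of BCL2L1 by 2.29 and that of MCL1 by 2.27 log2 units. BMF had the highest and BCL2L1 and MCL1 the lowest differences of the measured members, so these are the largest gaps any pair could show. Pairs with BID, BBC3, BCL2 or BCL2A1 are not given here. For BCL2L11 the excess was 1.51 over BCL2L1 and 1.49 over MCL1. PMAIP1 and its partner MCL1 were both lower in EBC1-R, PMAIP1 by the smaller amount, 0.58 log2 units apart. These are contrasts of changes and say nothing of how much of each transcript a cell holds, since levels of different probe sets are not on a common scale.

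The genes beside BMF, MCL1 and BCL2L1 on their chromosomes were all under 2-fold, as most genes on the arrays were. Past that threshold lay 1.26% of the 18377 genes on the upper side and 0.887% on the lower side. The absence of such a change among so few neighbours therefore does not set these loci apart. At each locus some neighbours lay under the level filter, where a small difference does not show that the transcript was unchanged. The 3 nearest measured genes on each side of BMF differed by -0.12 to 0.47. Of these 6 genes 5 were lower, against 55.5% of all genes, each by less than the SD of 0.16 between probe sets. Around MCL1 the range was -0.71 to 0.70 and around BCL2L1 -0.43 to 0.86, the highest being ID1, an inhibitor of basic helix-loop-helix factors, which was named after its value was seen.

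Other BCL2 family genes differed little. The effector genes BAX and BAK1, whose products form the pore, had differences of -0.16 and -0.30, from levels of 9.89 and 8.77 in EBC1-R and 10.05 and 9.07 in EBC1. BOK, a related effector, differed by 0.08. The further BH3-only genes BAD, which is controlled by survival kinases, BIK and HRK had differences of -0.07, -0.14 and -0.28. BCL2L10, an anti-death gene dim on both arrays, differed by -0.18. None of these 7 genes reached 1.5-fold, nor did most genes on the arrays, and the median of the 7 was -0.16.

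The list of 9 BCL2-related genes held the largest increase of the other cell death genes. BNIP3, a hypoxia-induced mitophagy receptor with a BH3-like stretch, was at 11.42 in EBC1-R and 9.85 in EBC1, 2.95-fold higher. Its relative BNIP3L was at 11.64 in EBC1-R and 11.05 in EBC1, 1.503-fold higher. BNIP1, a SNARE protein of the endoplasmic reticulum, was 1.61-fold higher but passed the level filter through EBC1-R alone. Of the genes of this list 5 were higher (6 after removal of a lowess trend), against 43.3% of all genes, with a median of 0.25. BECN1, an autophagy initiator that BCL2 binds, differed by 0.29 and BCL2L13, another mitophagy receptor, by 0.25, while BNIP2, BCL2L12, BCL2L14 and BCL2L15 differed by -0.19, -0.16, -0.05 and -0.04.

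Downstream of the mitochondria no gene of the apoptosome and caspase list reached 2-fold, which is usual for so short a list. The background rate past this threshold was 1.26% upward and 0.887% downward. Of the list's 11 measured genes 6 were higher, against 43.3% of all genes, with a median of 0.11. The largest difference was in CASP2, an initiator caspase, at 9.86 in EBC1-R and 10.53 in EBC1, 1.59-fold lower. AIFM1, a flavoprotein of the intermembrane space, differed by 0.44 and DIABLO, which blocks caspase inhibitors, by 0.36. APAF1, CYCS and CASP9, the core of the apoptosome, differed by 0.11, -0.11 and 0.26.

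Of 6 measured inhibitor of apoptosis genes 5 were lower, against 55.5% of all genes, with a median of -0.24. BIRC6, a giant ubiquitin ligase, differed by -0.50 and BIRC5, the mitotic protein survivin, by -0.49 over a pair of probe sets. NAIP differed by -0.24, as a mean of 3 probe sets. XIAP, which binds active caspases directly, differed by -0.07 and BIRC2 by 0.05, both smaller in size than the SD between probe sets.

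Among 10 measured death receptor genes the TRAIL receptor TNFRSF10A was at 7.74 in EBC1-R and 8.86 in EBC1, 2.19-fold lower. The other TRAIL death receptor, TNFRSF10B, differed by -0.37, and FADD, the adaptor that both use, by -0.53. TNFRSF10D, a decoy receptor for TRAIL, was higher by 0.52 and the adaptor TRADD by 0.36. With 6 genes higher, against 43.3% of all genes, the list median was 0.02. Centring each array on its median turned it to -0.01 with 4 genes higher, and quantile normalization left 5 higher.

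Transcription factors that act on BH3-only genes differed by less than 1.5-fold, as did most of all genes. Of 11 measured factors 7 were lower, against 55.5% of all genes, with a median of -0.14. FOXO4 was higher by 0.53, with 7.75 in EBC1-R and 7.23 in EBC1, and FOXO1, another member of the family known to induce BCL2L11, by 0.17. FOXO3 differed by -0.21 on its own probe set, under the level filter, and a brighter probe set shared with FOXO3B differed by -0.46. STAT3, an activator of BCL2L1 and MCL1, was higher by 0.33 while both were lower, and E2F1 differed by -0.41.

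Outer membrane partners gave a median of 0.11 over 4 genes, among them MTCH2, the receptor for cut BID, at 0.48, VDAC3 at -0.30 and VDAC1 at 0.22. The 9 genes for turnover and anchoring of family proteins had a median of -0.03 and lay between -0.26 and 0.12. They include HUWE1, a ubiquitin ligase for MCL1, at -0.02, USP9X, which removes ubiquitin from MCL1, at 0.04, and the dynein light chains DYNLL1 and DYNLL2, which anchor BIM and BMF, at 0.12 each. The largest difference of that list was in TRIM17, at -0.26. Over all 67 other cell death genes measured, BNIP3 alone was 2-fold higher and TNFRSF10A alone 2-fold lower, with a median of -0.05. Over all genes 1.26% were 2-fold higher and 0.887% 2-fold lower, so these counts are near the background. Of the 73 such genes listed, 6 were not analysed here.

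**Figure D3:**
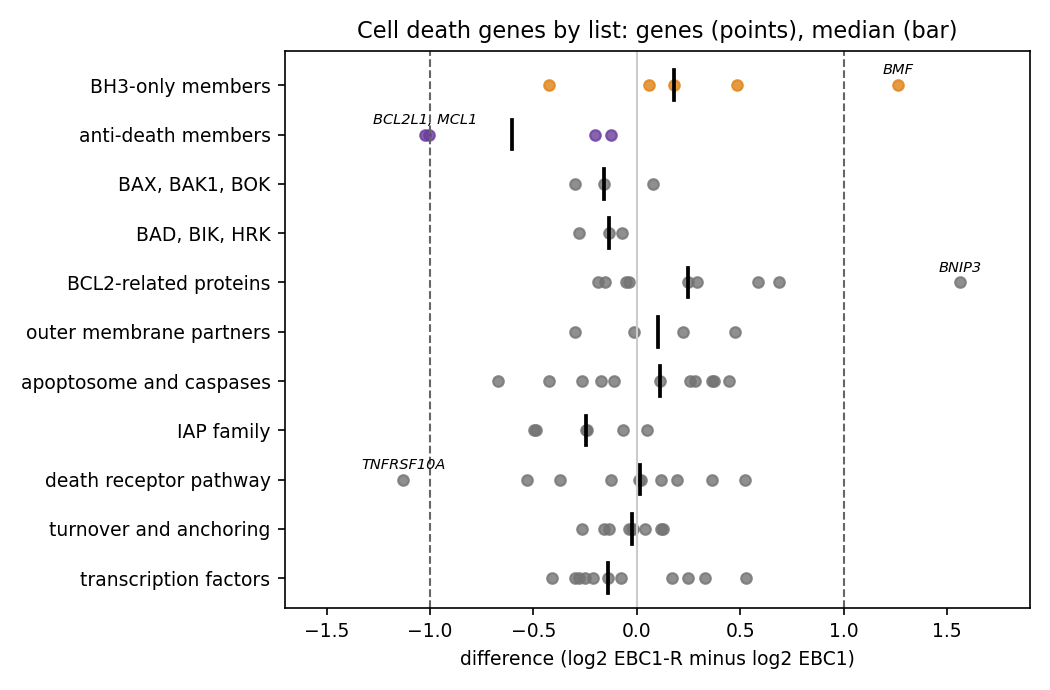
Differences, log2 EBC1-R minus log2 EBC1, of the BH3-only and anti-death genes and of other cell death genes by list, with a point per gene, a black bar at each list's median and dashed lines at 2-fold; BCL2L10 is not drawn. BMF, BCL2L1, MCL1, BNIP3 and TNFRSF10A are the genes past 2-fold.

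**Figure D4:**
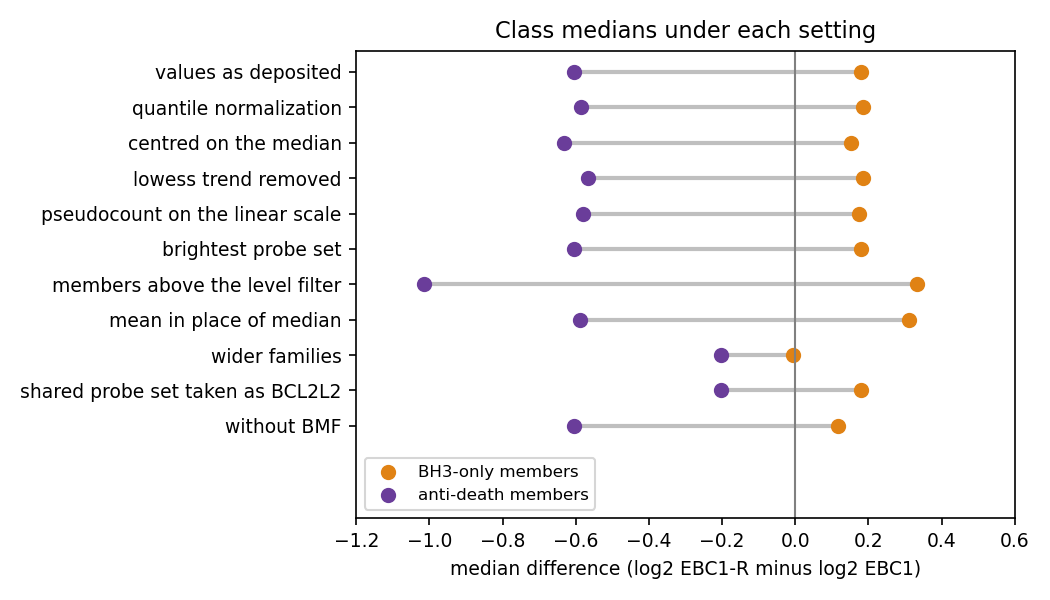
Median difference of the BH3-only and anti-death genes under each setting, in log2 units. The BH3-only median lay to the right of the anti-death median in all 11 settings, with the smallest gap, 0.20, for the wider families. Not all settings could alter the gap. Members have a single probe set each, so the brightest probe set repeats the deposited values, and median centring shifts every gene alike. The level filter selects the genes, so its larger gap carries no weight.

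For context, ABCB1, the efflux pump named in the study's title, was at 12.65 in EBC1-R and 5.37 in EBC1, and MET was at 13.21 in EBC1-R and 13.17 in EBC1. DUSP6, a phosphatase that ERK signalling induces, was at 8.75 in EBC1-R and 11.08 in EBC1, 5.03-fold lower, and its relation to the differences of BMF and BCL2L11 was not tested. Epithelial markers were bright on both arrays, from 11.25 to 12.06 in EBC1-R and 11.33 to 12.83 in EBC1. The keratins among them, KRT8, KRT18 and KRT19, were lower in EBC1-R, with differences of -0.83, -0.78 and -0.89. Their part in the results was not tested. The 4 squamous markers measured (SOX2, KRT5, KRT14 and DSG3) lay under the level filter on both. Of 14 leukocyte, fibroblast and endothelial markers 1, COL1A1, lay above the filter, and their differences ran from -0.15 to 0.17.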

How the data were processed

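Each array's deposited column holds 1 value for every probe set, read as log2 intensity; the log base is inferred from the range of the values (4.22 to 14.2 in EBC1-R and 4.21 to 14.1 in EBC1). How the authors corrected background and normalized, and with which software, was not given in the sources used here. An extraction protocol in the labels names another array type than the probe annotation that the identifiers match, so it does not describe these values. The medians of the columns were 6.71 in EBC1-R and 6.73 in EBC1, so a shift shared by most genes may have been removed before deposit.

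Of 28869 probe sets, 19310 had 1 symbol, 1752 several and 7807 none. Values of probe sets with 1 symbol were averaged per gene. Gene identifiers were matched to RefSeq for 18345 genes, for gene order only. The number of arrays limits the precision: there is 1 per group, so no test was run. Counting used a threshold of 2-fold. All 10 members are named, with genes of each list at least 1.5-fold different, up to 3 further genes with the largest difference, and others named for their role after their values were seen. Members and lists were chosen with earlier results of these data known. Alternatives were quantile normalization, median centring, lowess (span 0.2), a pseudocount of 16, the brightest probe set, the level filter, means, wider families and other thresholds. Counting was tested on simulated data without noise, with differences set past the threshold. This checks the code alone, not how counting behaves for noisy values or genes near the threshold. Python 3.11.15, pandas 2.3.3 and statsmodels 0.14.6 were used.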

Additional observations from a re-analysis of the deposited data

How the results depend on the processing

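Class medians and the gap between them moved by less than 0.16 log2 units, the SD between probe sets of a gene, under quantile normalization, median centring, lowess, the pseudocount, the brightest probe set and means in place of medians, and so did the differences of 17 named genes under the 5 of these that alter a gene's value, none of which changed sign. The brightest probe set could change none of these values, as each of these genes has a single probe set. Median centring shifts every gene alike, so it could not move the gap. The count of members at least 2-fold lower was 1 after quantile normalization, 1 after lowess and 1 with the pseudocount, because MCL1 then lay just under the threshold. At 3-fold it was 0, as was the count of members higher. Over members above the level filter the BH3-only median was 0.33, the anti-death median -1.01 and the gap 1.35. This follows from the selection: of the anti-death genes it keeps BCL2L1 and MCL1 alone, and of the BH3-only genes it drops BBC3 and keeps BMF and BCL2L11, which passed through EBC1-R alone, so the larger gap supports nothing. With the wider families the BH3-only median was -0.0069, the anti-death median -0.20 and the gap 0.20. They add BAD, BIK, HRK and BCL2L10, all lower, with differences of -0.07, -0.14, -0.28 and -0.18. With the shared probe set, at -0.04, taken as BCL2L2, the anti-death median was -0.20 and the gap 0.38. No paired analysis was possible because each group has 1 array. Without replicates or detection calls, small differences and dim genes such as BCL2 and BCL2A1 cannot be read further.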

Other observations

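Some cell death genes had probe sets that did not give the same value. CFLAR, a caspase-8 inhibitor, had a probe set at 7.80 in EBC1-R and 7.415 in EBC1, a difference of 0.38, and another at 6.88 in EBC1-R and 7.02 in EBC1, a difference of -0.15. For BIRC5 the differences were -0.62 and -0.36, the first from the brighter probe set. A probe set that names both FOXO3 and FOXO3B was at 11.00 in EBC1-R and 11.46 in EBC1, a difference of -0.46, against -0.21 on the probe set of FOXO3 alone. Next to the shared BCL2L2 probe set, that of PABPN1 and BCL2L2-PABPN1 was at 10.69 in EBC1-R and 10.59 in EBC1, a difference of 0.10.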
